A study of Mus musculus with 52 samples.

Results

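The genes H19, Igf2 and Ins2 form an imprinted locus on mouse chromosome 7. These 3 genes were taken by name from the 55450 genes of GENCODE M21. Their span was extended by 100 kb on both sides, which gave a window of 368 kb at chr7:142475529-142843381 (mm10). The data were 8 lists of ChIP-seq peaks from female clonal mouse embryonic fibroblasts (MEFs), which together hold the merged reads of 24 of the 52 libraries in the study. The lists were for SmcHD1, a chromosomal protein that acts on the inactive X chromosome and on some imprinted genes, for CTCF, a zinc finger protein of insulators and domain borders, and for Rad21, a subunit of the cohesin ring. The window held 0 of 6993 SmcHD1 peaks in wt and 0 of 244 in mut. Of the CTCF peaks, 26 of 60204 wt, 19 of 57798 mut and 22 of 69736 somKO entries lay in it. Of the Rad21 peaks, 22 of 67655 wt, 15 of 66031 mut and 21 of 89974 somKO entries did.

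All cells came from an F2 cross between M.m.domesticus, strain FVB, and M.m.Castaneus. The wt cells were the wild-type clone Wt2A1, and the mut cells were the clone Mut5A6 with the label "SmcHD1 MomeD1 mutant", a germline null. The somKO cells were 2 clones, A3-3 and D4, in which SmcHD1 was removed with CRISPR in culture. The methods place the CRISPR knockout in another wild-type line than Wt2A1, so in every comparison below the clone and the SmcHD1 genotype change together and cannot be told apart. In an F2 cross an autosomal locus can be of either strain on either homologue, and the strain of this locus in each clone was not given in the sources used here. Each list is a merger of 2 to 4 libraries, so no value here has a replicate error, no test between genotypes was possible, and the differences below compare lists. Chromatin was crosslinked with EGS and formaldehyde for SmcHD1 and Rad21 and with formaldehyde alone for CTCF.

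H19, transcribed from the maternal chromosome into a long non-coding RNA that is the precursor of the microRNA Mir675, and Igf2, which encodes a fetal growth factor and is transcribed from the paternal chromosome, share enhancers that lie beyond H19. Between them lies a control region just upstream of H19 that is methylated on the paternal chromosome only. CTCF binds its unmethylated maternal copy and holds the enhancers away from Igf2, and cohesin is found at such CTCF sites. Ins2, an insulin gene that is imprinted in the yolk sac, lies on the far side of Igf2. Reads of both alleles entered the lists together, so that a peak in the control region does not say which parental copy it came from.

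The control region was taken as the bases 2 to 4 kb upstream of the H19 start, at chr7:142580143-142582143. Its reference sequence held the 8 letters GGNGGCAG at 5 places, all on the minus strand, which is the strand of H19. These letters are the core of the CTCF elements known in this region and were searched on both strands. A place that holds the 8 letters is called an element here, and which of these places CTCF binds was not tested. The elements are shown because they are the parts of the region to which the peaks below can be related. They are given 5′ to 3′ on the minus strand of mm10 with the core in capitals, and the coordinates are those of the core.
element 1, chr7:142580309-142580316, 2166 bp upstream: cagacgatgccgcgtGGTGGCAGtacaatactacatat
element 2, chr7:142580764-142580771, 2621 bp upstream: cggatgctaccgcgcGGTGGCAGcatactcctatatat
element 3, chr7:142581790-142581797, 3647 bp upstream: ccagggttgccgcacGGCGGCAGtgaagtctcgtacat
element 4, chr7:142581909-142581916, 3766 bp upstream: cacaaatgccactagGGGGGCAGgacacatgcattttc
element 5, chr7:142582034-142582041, 3891 bp upstream: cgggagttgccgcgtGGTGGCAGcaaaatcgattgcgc
Elements 1, 2, 3 and 5 carried 3, 4, 4 and 5 CpG dinucleotides in the letters shown, and element 4 carried 0. The letters ccgc stood before the core in elements 1, 2, 3 and 5 and not in element 4. CpG is the dinucleotide that is methylated on the paternal copy. The control region as a whole held 60 CpGs, or 30.0 per kb, against 9.22 per kb in the window. Of the same interval upstream of 53843 genes, 44.8% held the core at least once and 160 intervals, 0.297%, held it 5 times or more. The core was chosen from elements of this region, so its count here is no test of enrichment. The shares describe only how common the 8 letters are. Of 300-bp stretches of chromosome 7 outside peaks, 7.31% held the core, and of the wt CTCF peaks of chromosome 7, which vary in width, 27.8% did. These letters are those of the reference strain, and neither FVB nor castaneus variants were read.

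Every CTCF and every Rad21 list had a peak over the control region, and neither SmcHD1 list had one. In the CTCF wt list a single peak of 2330 bp covered chr7:142580085-142582414 with a score of 1980. The score appears to be the -log10 q-value of the peak's summit multiplied by 10 and depends on depth, so it is given below as a percentile within its own list, where 100 is the highest score. The wt peak ranked 14379 of 60204, the 76.1 percentile. The somKO peak, chr7:142580087-142582457, was 2371 bp wide with a score of 2161 and stood at the 75.8 percentile, so the somKO and wt lists were alike in the extent and in the standing of this peak.

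In place of the single CTCF peak, the mut list had a pair of narrower ones. The first, chr7:142580228-142581196, was 969 bp wide with a score of 433, at the 40.4 percentile, and contained elements 1 and 2. The second, chr7:142581694-142582157, was 464 bp wide with a score of 627, at the 48.0 percentile, and contained elements 3, 4 and 5. All 5 elements thus lay inside a peak in each of the 3 genotypes. The 497 bp between the mut peaks held 0 of the 5 elements and 8 CpGs, 16.1 per kb, whereas the mut peaks held 35.1 and 36.6 CpGs per kb.

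Rad21 followed the same outline. Its wt peak, chr7:142579897-142582235, was 2339 bp wide with a score of 1545, at the 89.6 percentile. Its somKO peak, chr7:142579885-142582472, was 2588 bp wide with a score of 2825, at the 90.9 percentile. In mut there were again 2 peaks, one of 1062 bp at chr7:142580091-142581152 with the 69.9 percentile and one of 487 bp at chr7:142581585-142582071 with the 70.3 percentile. The gap between them was 432 bp. In all 3 genotypes the control region ranked higher in the Rad21 list than in the CTCF list, by percentiles that were computed in lists of different antibodies and fixation.

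**Figure D1:**
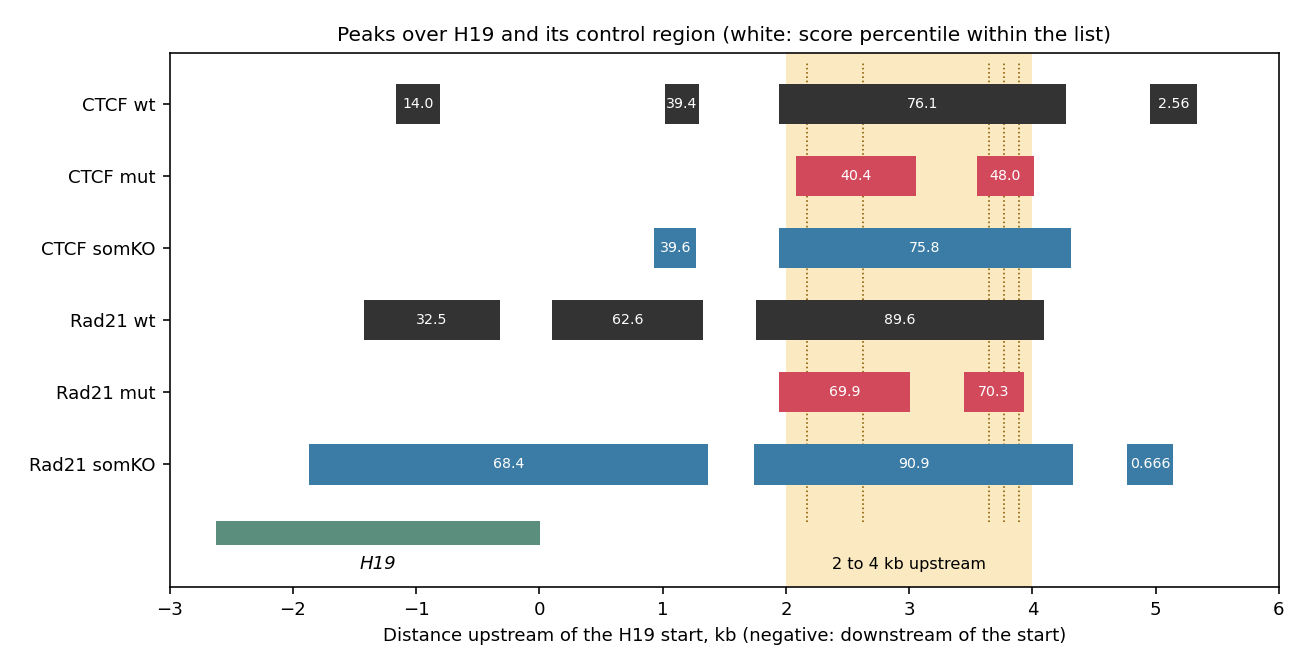
Peaks over H19 and the 6 kb upstream of its start in the 6 CTCF and Rad21 lists. The x axis is the distance upstream of the H19 start in kb, each bar is 1 peak with its score percentile in white, the shaded band is the control region and the dotted lines are the 5 core elements. The control region has 1 wide peak in the wt and somKO lists and 2 narrower peaks in the mut lists, and the mut lists have no peak over the gene or between its start and the control region peaks.

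The percentile change at the control region was set beside that of all wt peaks that overlapped a peak of the other list by at least 1 bp, taking the higher mut peak. The mut minus wt difference at the control region was -28.2 points for CTCF. Among 48324 matched wt peaks the median change was -0.704 points (SD 16.6), and 1.80% had a difference as low. Among the 6018 matched peaks within 5 percentile points of the wt value, the median was -1.34 and 1.99% were as low. For Rad21 the difference was -19.3 points, against a median of 0.896 (SD 19.9) over 48407 matched peaks. Of these 8.29% were as low, and of the 6741 peaks of similar wt percentile 3.62% were. The mut difference at the control region was therefore in the lower tail of its list for both antibodies, more so for CTCF. In somKO the change was -0.278 points for CTCF and 1.33 for Rad21, where the medians of all matched peaks were 4.28 and 8.68. Among matched peaks of similar wt percentile the somKO medians were 2.82 for CTCF and 2.24 for Rad21, and 23.9% and 36.6% were as low.

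Breaking up of wide peaks was not particular to the control region. Of 2579 CTCF wt peaks of 2000 bp or more in the genome, 23.3% met 2 or more mut peaks and 14.2% met 2 or more somKO peaks. Of 5763 such Rad21 peaks the shares were 23.0% for mut and 5.55% for somKO. In the window, 1 of 2 wide CTCF peaks and 1 of 3 wide Rad21 peaks broke up in mut, in both cases the control region, and 0 did in somKO. A width of 2330 bp or more was found in 2.72% of CTCF wt peaks.

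Joint CTCF and Rad21 peaks 2 to 4 kb upstream of a start were found at a minority of genes. Of 53843 genes, both kinds of peak were in this interval for 6.99% (wt), 7.07% (mut) and 9.23% (somKO), and 5.73% had a peak in all 6 lists. H19 was 1 of the 3083 genes with a peak in all 6.

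**Figure D2:**
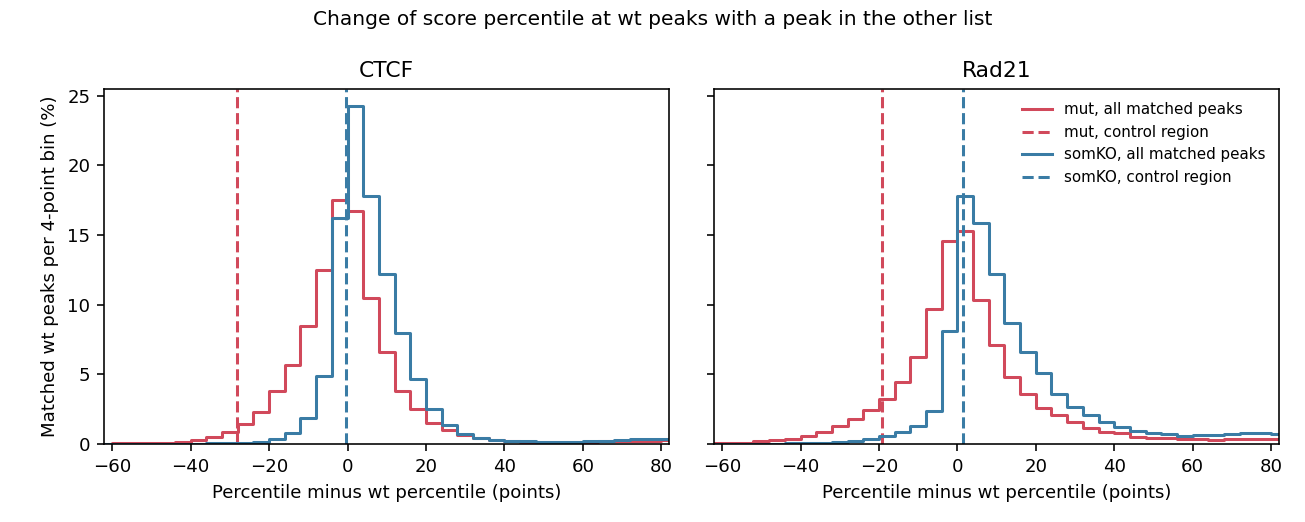
Distribution of the change in score percentile relative to wt at all matched wt peaks of the genome, for CTCF (left) and Rad21 (right). The x axis is the change in percentile points, the y axis is the percentage of matched peaks per 4-point bin, solid lines are all matched peaks and dashed lines are the control region. The mut control region lies at -28.2 for CTCF and -19.3 for Rad21, and the somKO one lies near 0 in both.

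Around the H19 gene itself the mut lists were the emptiest. Within 2 kb of H19 (chr7:142575529-142578143, minus strand), there were 3 wt, 0 mut and 2 somKO CTCF peaks, and 3 wt, 1 mut and 2 somKO Rad21 peaks, counting the edge of the control region peak where it came within 2 kb. Over the exons of H19 and Mir675, at chr7:142576981-142577339, CTCF had a peak in wt only, at the 14 percentile. Rad21 had a wt peak of 1107 bp there, chr7:142576718-142577824, at the 32.5 percentile, and a wt peak of 1226 bp over the sequence just upstream of the start, chr7:142578244-142579469, at the 62.6 percentile. In somKO 1 Rad21 peak of 3241 bp, chr7:142576272-142579512, ran over both and stood at the 68.4 percentile. In mut neither antibody had a peak inside H19 or between its start and the control region peaks.

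A further CTCF peak lay 1.16 kb upstream of the H19 start, between the gene and the control region, in wt at the 39.4 percentile and in somKO at the 39.6 percentile, and had no counterpart in mut. The somKO peak, chr7:142579074-142579415, was 342 bp wide. The wt peak was 271 bp wide, and its plus strand sequence is shown because it was present in 2 genotypes and missing in the third. It held 5 CpGs and 0 copies of the core, and no match to the CTCF matrix described below. A copy of the core lay just beyond its end, at chr7:142579441-142579448 on the plus strand. That copy was in no CTCF peak and in the Rad21 peaks of wt and somKO.
peak 1.16 kb upstream of H19, chr7:142579164-142579434: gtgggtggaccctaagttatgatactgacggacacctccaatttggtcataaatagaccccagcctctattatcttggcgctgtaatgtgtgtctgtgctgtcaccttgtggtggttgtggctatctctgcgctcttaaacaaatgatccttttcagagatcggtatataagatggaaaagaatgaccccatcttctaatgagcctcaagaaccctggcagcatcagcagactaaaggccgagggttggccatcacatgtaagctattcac
The Rad21 wt peak just upstream of the H19 start and the Rad21 somKO peak over the gene both covered this stretch. Farther out, 5.15 kb upstream, CTCF had a wt peak at the 2.56 percentile, and Rad21 had a somKO peak 4.96 kb upstream at the 0.666 percentile. Both were among the weakest entries of their lists.

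Igf2, at chr7:142650766-142666816, had 0 peaks inside it or within 2 kb in wt and mut for either antibody. In somKO it held 1 CTCF peak, chr7:142659116-142659363, at the 7.19 percentile, and 1 Rad21 peak, chr7:142657208-142657462, at the 31.0 percentile. Both overlapped Igf2 exons, and they lay apart from each other, so Igf2 had no site with both proteins. Ins2 had 0 peaks in the gene or within 2 kb in all 8 lists when the 1071 bp of the RefSeq gene, chr7:142678656-142679726, were used. The GENCODE record of Ins2 runs on to position 142743381, a span of 64726 bp, and this longer span held 6 wt, 4 mut and 5 somKO CTCF peaks, and 4 wt, 2 mut and 3 somKO Rad21 peaks.

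**Figure D3:**
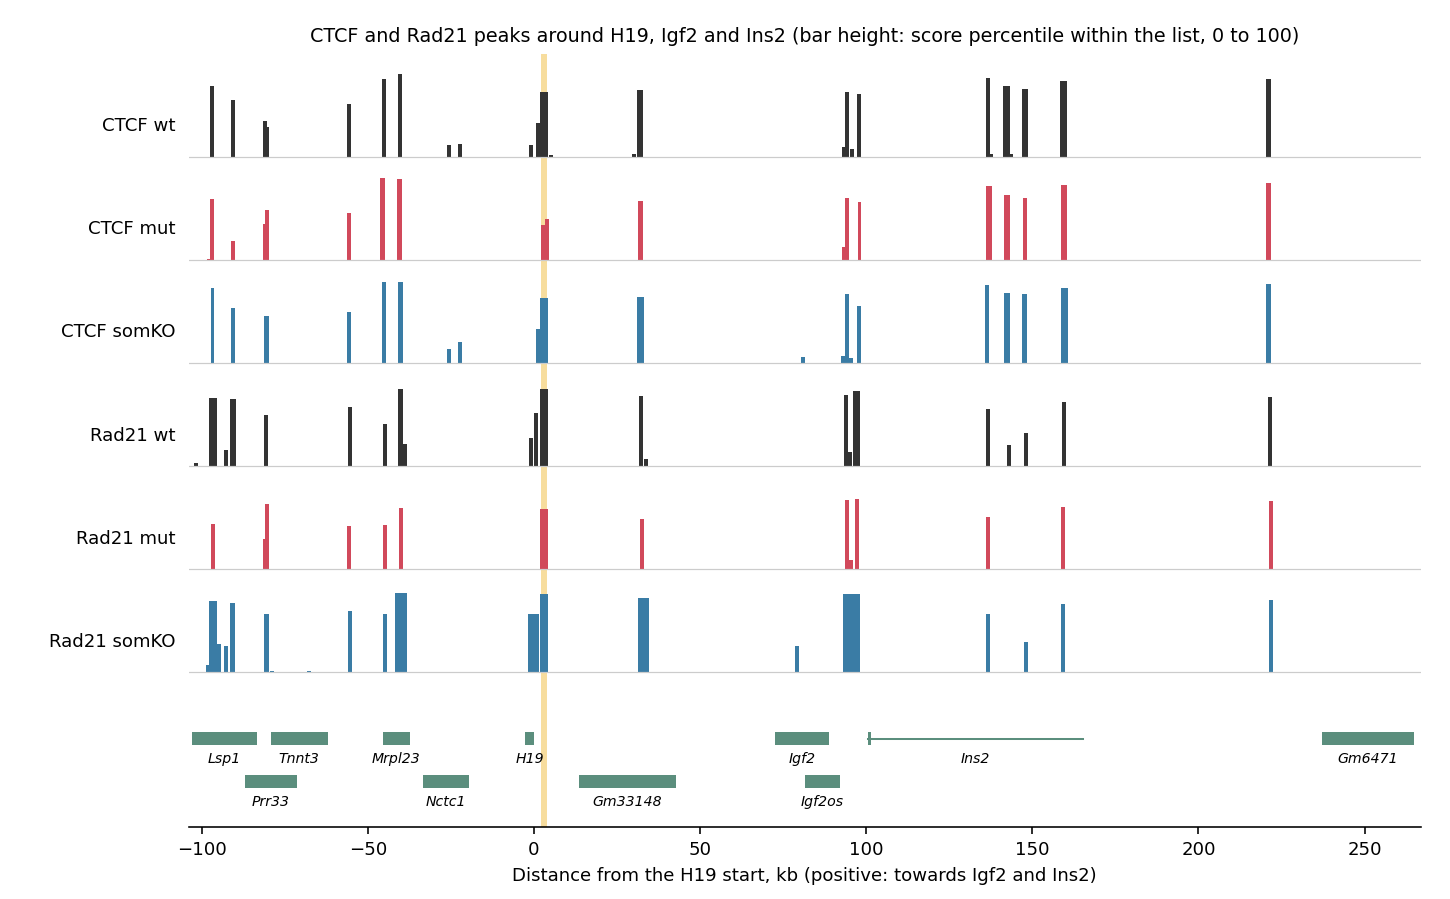
CTCF and Rad21 peaks in the window. The x axis is the distance from the H19 start in kb, with Igf2 and Ins2 on the positive side, and bar heights are score percentiles from 0 to 100 within the list (bars narrower than 1.2 kb are drawn at 1.2 kb). The band is the control region, green boxes are genes, and the line from Ins2 is the rest of its GENCODE span. Igf2 and the short Ins2 gene are free of peaks in wt and mut, and a cluster of sites lies between them.

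CTCF sites formed groups on both sides of the imprinted genes. Sites were made by merging overlapping peaks of an antibody over the 3 genotypes, which gave 26 CTCF sites and 23 Rad21 sites. Of the CTCF sites 16 were present in all 3 genotypes, 4 in wt and somKO, 4 in wt only, 1 in somKO only and 1 in mut only. Of the Rad21 sites 11 were present in all 3 genotypes, 4 in wt and somKO, 2 in wt only, 6 in somKO only and 0 in mut only. There were 0 sites of either antibody that wt and mut had and somKO lacked. Sites were not counted over the genome, so these counts have no background. The longer somKO lists lacked only 7.63% of all wt CTCF peaks and 7.22% of all wt Rad21 peaks. The density of peaks in the window was above the median of the genome: of 6511 autosomal windows of the same size, 5.88% had at least as many CTCF wt peaks, 12.5% in mut and 13.1% in somKO. For Rad21 the shares were 12.3% in wt, 25.3% in mut and 23.0% in somKO. The absence of SmcHD1 peaks was the common state, since 77.3% of these windows had no wt SmcHD1 peak.

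The highest CTCF peak of the window in wt was at Mrpl23, the gene of a mitochondrial ribosomal protein on the enhancer side of H19, which held 2 CTCF sites. Distances from the H19 start are negative on this side. The site at -40.4 kb stood at the 96.2 percentile in wt, 94.3 in mut and 94.1 in somKO. The site at -45.5 kb stood at 91.0, 95.2 and 95. Both thus stood at the 91.0 percentile or higher in every CTCF list. Rad21 was high at the first of these, at the 89.8 (wt), 71.3 (mut) and 92.7 (somKO) percentile, and lower at the second, at 49.0, 51.9 and 67.6. The next in order in wt, above the -45.5 kb site, lay 137 kb and 221 kb from the H19 start, with CTCF at the 91.8 percentile in wt, 86.3 in mut and 91.2 in somKO at the former and at 91.4, 89.6 and 92.2 at the latter, and, below the -45.5 kb site, 159.5 kb away with 88.3, 87.9 and 87.2. Rad21 at these places stood at 66.2 in wt, 60.5 in mut and 68.6 in somKO, at 81.2, 79.7 and 83.9, and at 74.8, 72.9 and 80.0. For Rad21 the order was different, with the Mrpl23 site, the control region and the cluster between Igf2 and Ins2 at the top in wt. The percentiles of these 5 leading CTCF sites differed from each other by less than 8 points in wt, and no replicate spread is known against which to order them.

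Between Igf2 and Ins2 lay a cluster at chr7:142671010-142676607. It held CTCF sites 94.3 and 97.9 kb from the H19 start, with the 75.2 and 73.0 percentiles in wt, 72.7 and 67.1 in mut and 80.0 and 67.1 in somKO, and lesser sites 93.1 and 95.3 kb away. Rad21 had 3 peaks over the cluster in wt, at the 83.5, 16.1 and 87.2 percentiles, 3 in mut, at 80.3, 11.0 and 82.2, and 1 of 5339 bp in somKO at 91.7. The cluster was therefore the Rad21 site of the window with the highest percentile in mut, above the control region at 70.3. The mut list had no CTCF peak at the site 95.3 kb away, which stood at 8.92 in wt and 6.36 in somKO.

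Within the interval between H19 and Igf2, a site 32 kb upstream of H19 in an intron of the non-coding gene Gm33148 had CTCF at the 78.4 percentile in wt, 69.2 in mut and 76.6 in somKO. At the same place Rad21 stood at 81.6, 58.9 and 87.0. This was the one site between the control region and Igf2 that both proteins held in all genotypes, and a CTCF wt peak 30.0 kb upstream, at the 3.70 percentile, lay beside it.

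On the enhancer side, Nctc1, a non-coding gene next to H19, held 2 CTCF peaks in wt at the 14 and 14.9 percentiles, 2 in somKO at 16.5 and 24.7 and 0 in mut, and 0 Rad21 peaks in any list. In Lsp1, a gene of a leukocyte actin-binding protein, the CTCF site at -90.7 kb stood at the 66.4 percentile in wt, 22.3 in mut and 63.9 in somKO. Its mut minus wt difference of -44.1 points was the lowest of the CTCF sites in the window. Rad21 had a peak there at 78.3 in wt and 80.3 in somKO and none in mut. The Lsp1 intron site at -96.9 kb stood at 82.8, 70.7 and 87.6 for CTCF and at 79.3, 53.1 and 82.8 for Rad21 in wt, mut and somKO. The site in the non-coding gene Prr33 differed the other way. It stood at 42.4 in wt, 58.5 in mut and 54.5 in somKO for CTCF, and at 60.0, 76.2 and 68.3 for Rad21. The intergenic site at -55.7 kb, nearest the troponin gene Tnnt3, stood at 61.3, 54.5 and 59.3 for CTCF and at 68.6, 50.9 and 72.0 for Rad21.

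Sites of 1 genotype were weak, apart from a few Rad21 sites. The mut-only CTCF peak was in Lsp1 at the 1.61 percentile. The wt-only CTCF sites stood at 14 in H19, 2.56 and 3.70 upstream of H19 and 3.70 in the longer Ins2 span. The somKO-only Rad21 sites were at 8.11 and 32.8 in Lsp1, 1.35 and 1.35 in Tnnt3, 0.666 upstream of H19 and 31.0 in Igf2. The wt-only Rad21 sites were at 4.11 in Lsp1 and 25 in the longer Ins2 span.

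**Figure D4:**
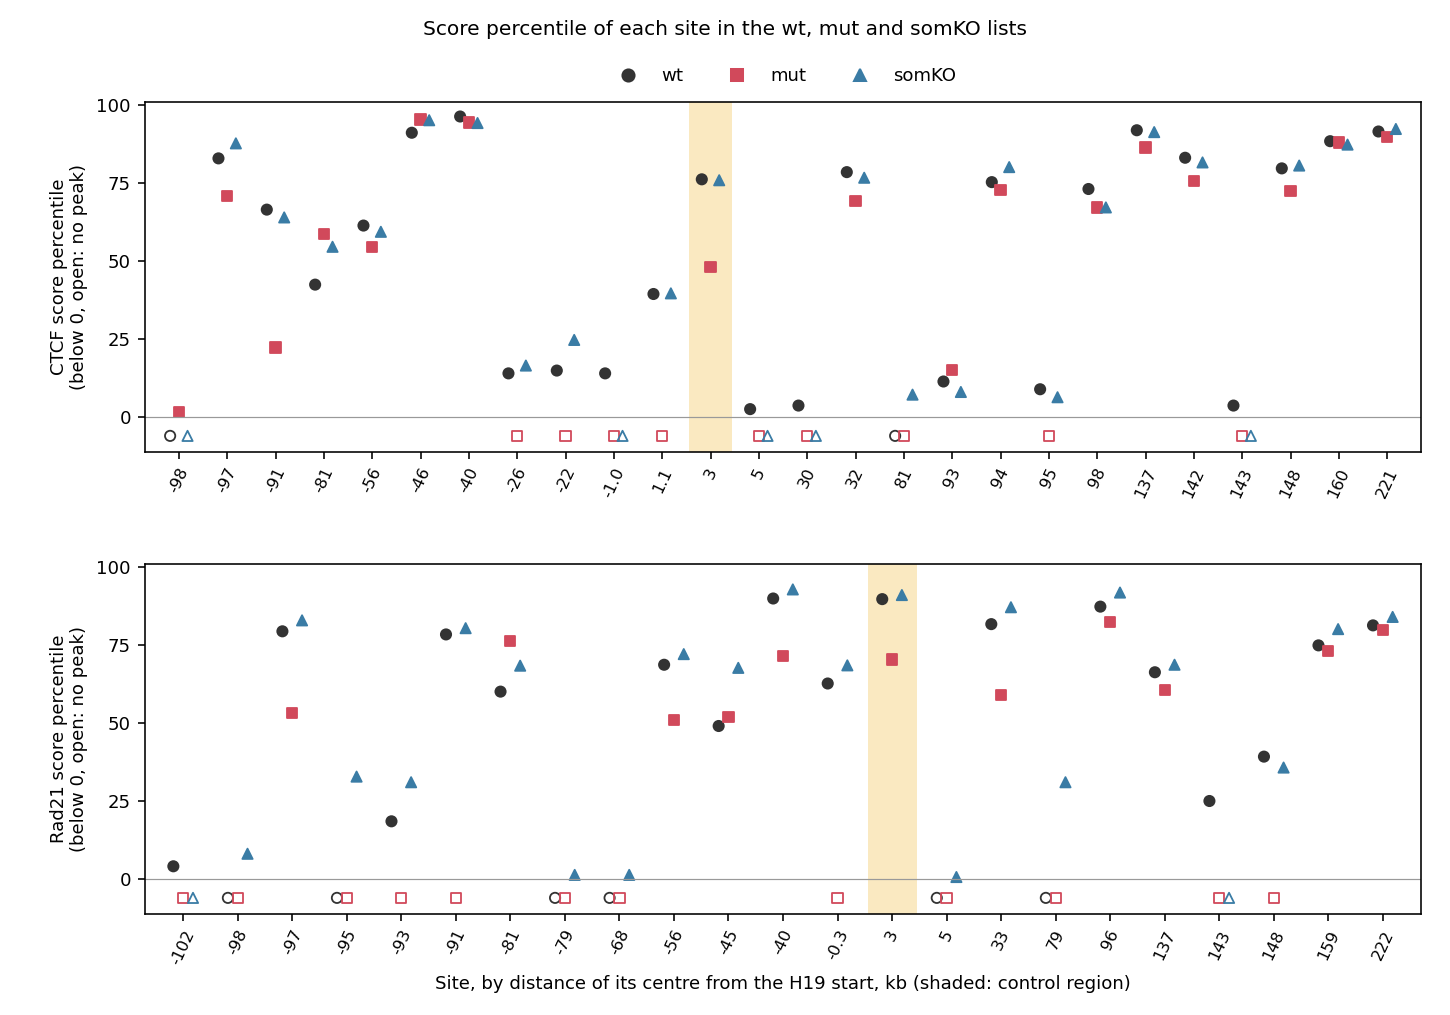
Score percentile of each CTCF site (top) and Rad21 site (bottom) in the wt, mut and somKO lists. The x axis orders the sites by the distance of their centre from the H19 start in kb, filled symbols are the highest peak of the site in each list, open symbols below 0 mark lists with no peak, and the band is the control region. The mut symbol lies below the wt symbol at 13 of 16 CTCF sites and 9 of 11 Rad21 sites present in all lists. Of single matched wt peaks in the window, 77.8% for CTCF and 84.6% for Rad21 lie below wt in mut. Within 5 Mb around the window 67.6% and 61.9% do, and over the genome 53.6% and 45.9%.

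Counting wt peaks, 8 of 26 CTCF peaks of the window had no mut peak, where the share over all wt CTCF peaks was 19.7%, and 9 of 22 Rad21 peaks had none, where it was 28.5%. In the other direction, 1 of 19 CTCF mut peaks and 0 of 15 Rad21 mut peaks had no wt peak, against 16.8% and 27.2% over the lists. For somKO, 4 of 26 CTCF wt peaks and 2 of 22 Rad21 wt peaks had no counterpart, against 7.63% and 7.22%. Of the somKO peaks, 1 of 22 for CTCF and 6 of 21 for Rad21 had no wt peak, against 22.6% and 37.8%. In these counts the share of wt peaks without a mut counterpart was above that of the whole lists and the share of peaks absent from wt was below it, by a handful of peaks. For somKO the losses lay on either side of the list share by setting: 1 of 22 CTCF peaks against 4.67% at a score of at least 50, and 2 of 22 Rad21 peaks against 12.3% in lists cut to equal length.

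A wt peak that overlapped no mut peak is called lost here. Loss went with the standing of a peak in wt. All 8 CTCF peaks that mut lacked were below the 50th percentile in wt, from 2.56 to 39.4, and they were 8 of 12 such peaks in the window, where 38.2% of such peaks were lost over the genome. Of the 14 CTCF peaks from the 50th percentile up, 0 were lost, where 1.26% were over the genome. For Rad21, 7 of 9 lower and 2 of 13 higher peaks were lost, where 48.8% and 8.06% were over the genome. The 2 higher peaks were the Lsp1 peak at 78.3 and the peak just upstream of the H19 start at 62.6.

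At sites present in all genotypes the mut percentile was below wt at 13 of 16 CTCF sites, with a median difference of -5.70 points and a range from -44.1 to 16.1, and at 9 of 11 Rad21 sites, with a median of -5.62 and a range from -26.2 to 16.2. Sites were not made over the genome, so single wt peaks matched to mut are the like comparison. In the window 77.8% of 18 such CTCF peaks and 84.6% of 13 such Rad21 peaks were below wt. Within 5 Mb around the window 67.6% were below wt for CTCF and 61.9% for Rad21. On chromosome 7 the shares were 60.8% and 49.6%, and over the genome they were 53.6% and 45.9%. In somKO the percentile was below wt at 10 of 16 CTCF sites (median -0.824, range -5.90 to 12.2) and at 0 of 11 Rad21 sites (median 3.50, range 1.33 to 18.6). Percentiles in the longer somKO lists were shifted upwards as a whole. Of single matched wt peaks of the genome, 24.3% for CTCF and 13.9% for Rad21 lay below wt, with medians of 4.28 and 8.68. The site medians are not of the same kind, since sites are merged and were present in all genotypes. Single matched wt peaks of the window had somKO medians of -0.438 for CTCF and 5.24 for Rad21, below those of the genome. Peaks of similar standing were not compared here. For matched wt peaks taken one by one, the median CTCF change in mut was -3.99 in the window, -2.05 within 5 Mb around it, -1.82 on chromosome 7 and -0.704 over the genome. For Rad21 the medians were -5.05, -1.58, 0.0733 and 0.896. The neighbourhood therefore stood between the window and the genome for both antibodies.

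The mut differences were also compared on both sides of the locus. When the sites were divided at the midpoint between the H19 start and the Igf2 end, a division made after the values were seen, Rad21 differed by a median of -18.4 points at 7 sites on the H19 side, from -26.2 to 16.2, and by -3.45 at 4 sites on the Igf2 and Ins2 side, from -5.62 to -1.46. For CTCF the medians were -8.00 at 8 sites, from -44.1 to 16.1, and -4.00 at 8 sites, from -7.37 to 3.57. Of the wt CTCF sites, 6 of 14 on the H19 side and 2 of 10 on the other side had no mut peak. Of the Rad21 sites it was 4 of 11 and 2 of 6. Over the single wt peaks of the whole lists the shares were 19.7% and 28.5%. Sites are merged peaks and were not made over the genome, so this is not a like comparison. The Rad21 shares of sites were alike on both sides, and the ranges of both sides overlapped for both antibodies.

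By an overlap of at least 1 bp, most CTCF peaks of the window met a Rad21 peak. In wt, 19 of 26 CTCF peaks overlapped a Rad21 peak, where 67.6% did over the list. In mut it was 14 of 19, against 68.6%, and in somKO 17 of 22, against 74.4%. Read from Rad21, 18 of 22 wt peaks overlapped a CTCF peak, against 58.9%, 14 of 15 in mut, against 58.4%, and 14 of 21 in somKO, against 54.9%. With an overlap of 50% of both peaks, 7 of 26 wt, 8 of 19 mut and 7 of 22 somKO CTCF peaks met a Rad21 peak. The share over the whole lists was not computed for this rule, so these counts cannot be called high or low. At 1 bp the CTCF peaks of the window were near the share of the whole list, and the Rad21 peaks were above it in each genotype. The CTCF sites without Rad21 were mostly weak, as in Nctc1, with the exception of the sites 142 and 148 kb from the H19 start, where CTCF in mut stood at 75.6 and 72.4 without a Rad21 peak. In somKO the former, at 81.5, had no Rad21 peak either. In wt the Rad21 peaks there were at 25 and 39.2.

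To relate the sites to sequence, a CTCF matrix of 19 positions was learned from 3000 high wt CTCF peaks of other chromosomes and matched on both strands. A match above 14.71 bits was found in 69.3% of the 3566 wt CTCF peaks of chromosome 7, which vary in width. It was found in 1.40% of 300-bp stretches outside peaks. The threshold was set to give 1 match per 20000 bases outside peaks, so the share outside peaks was fixed in advance. The window held 30 matches, of which 12 lay in a wt CTCF peak, 7 on the plus strand and 5 on the minus strand. The other 18 lay in no CTCF peak of any genotype. Of the 12 matches in wt peaks, 11 lay in a CTCF peak of all genotypes. At or near the 5 core elements of the control region, the best matrix scores on either strand were 11.6, 10.6, 8.6, 7.8 and 12.5 bits. None reached the threshold. Of the wt peaks with a match, 1 of 11 was lost in mut in the window and 14.3% over chromosome 7. Of those without, 7 of 15 were lost in the window and 28.5% over chromosome 7. The median wt percentile was 82.8 with a match and 39.4 without, so the match and the standing of the peak went together in the window. The matrix was learned from high peaks of the same wt list, and a match was sought over the whole width of a peak. This link is therefore partly built in.

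Matches at the described sites are printed with the 19 matched letters in capitals, 5′ to 3′ on the strand of the match. They are those of the highest CTCF site, of the site with the lowest mut minus wt difference and of the site at 97.9 kb between Igf2 and Ins2. The site at 94.3 kb in the same cluster, where CTCF stood higher in every list, held no match.
Mrpl23 site, chr7:142538099-142538117, plus strand: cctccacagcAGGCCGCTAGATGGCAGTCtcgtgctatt
Lsp1 exon site, chr7:142487454-142487472, plus strand: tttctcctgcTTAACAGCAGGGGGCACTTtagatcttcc
site between Igf2 and Ins2, chr7:142675854-142675872, minus strand: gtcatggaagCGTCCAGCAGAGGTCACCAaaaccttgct
The match at the Mrpl23 site scored 18.9 bits, that at the Lsp1 site 16 bits and that between Igf2 and Ins2 19.2 bits. Match scores did not order the sites by their mut peak. The match 95.5 kb from the H19 start, the 1 of 12 outside a mut CTCF peak, scored 19.3 bits, and those at 143 and 221 kb, inside a CTCF peak of all genotypes, scored 15.2 bits each.

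A set of 4 matches in high peaks beyond Ins2 is shown because they resembled each other beyond the matched letters.
+143 kb, chr7:142720925-142720943, plus strand: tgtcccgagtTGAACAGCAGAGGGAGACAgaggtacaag
+159 kb, chr7:142737123-142737141, plus strand: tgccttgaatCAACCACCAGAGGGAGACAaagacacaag
+159.8 kb, chr7:142737954-142737972, minus strand: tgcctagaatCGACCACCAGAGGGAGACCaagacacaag
+221 kb, chr7:142799629-142799647, plus strand: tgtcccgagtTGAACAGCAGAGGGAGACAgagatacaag
Of 39 letters, the matches at +143 and +221 kb differed at 1. The pair at +159 and +159.8 kb, which lay in 1 CTCF peak of 2183 bp in wt on opposite strands, differed at 3. Between this pair and the matches at +143 and +221 kb, 10 to 11 letters differed. The peaks that held the near-identical matches at +143 and +221 kb did not have the same standing. CTCF stood at 83 and 91.4 in wt, and Rad21 at 25 and 81.2, with no Rad21 peak at +143 kb in mut or somKO.

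Genes around the locus were taken from a list of 14 neighbours on chromosome 7, of which 5 overlap the window. SmcHD1 had 0 peaks in all 14 genes. Kcnq1, the potassium channel gene of the neighbouring imprinted domain, which is 321 kb long, held 3 wt, 3 mut and 5 somKO CTCF peaks, and 4, 4 and 6 Rad21 peaks. Th, the tyrosine hydroxylase gene of 38.4 kb, held 3, 4 and 4 CTCF peaks and 2, 2 and 2 Rad21 peaks. Ascl2, a transcription factor gene of the placenta, held 0, 1 and 1 CTCF peaks and 0 Rad21 peaks. Lsp1, 34.1 kb long, held 7 wt, 2 mut and 6 somKO Rad21 peaks, while its CTCF peaks were 2, 3 and 2. Syt8, a synaptotagmin gene of 5.55 kb, held 6, 2 and 4 Rad21 peaks and 3, 5 and 5 CTCF peaks. For Rad21, Mrpl23 held 3, 2 and 2 peaks, Tnni2 held 1, 0 and 1, and Ctsd held 2, 1 and 1. Rad21 peaks were not fewer in mut than in wt at Tspan32, with 3, 3 and 5, Cd81, with 2, 2 and 2, Tssc4, with 1, 1 and 1, and Tnnt3, with 0, 0 and 2. Peaks were not counted by gene over the genome, so the counts of the neighbours have no background.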

How the data were processed

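ChIP-seq libraries of female clonal MEFs were grouped by antibody and genotype as the labels give them. According to the methods of the study and the processing notes of the submitters, the authors aligned reads with Bowtie2 to mm10 with strain variants masked, merged the replicates and called narrow peaks with MACS2 at q below 0.05. Versions and the use of inputs are not given in the sources used here. Each deposited peak has a score, read here as 10 times -log10 q because the lowest score was 13 in every list. The depth is unknown. Here, peaks were ranked by score within their list, matched by an overlap of at least 1 bp and counted in the window with Python 3.11.15 and pandas 2.3.3. Shares over whole lists stand in for a test. Sequence was read from the RefSeq genome of the same build with samtools 1.23.1 indexing, and the CTCF matrix allows 1 match per 20000 bases outside peaks. The overlap and matrix steps were tested on simulated data. Genes named were the 3 members, neighbours of a list, and genes that hold or lie nearest to described peaks. Peaks named were those of the control region, those within 2 kb of the members, those of 1 genotype and the 5 highest of each list. The members and lists were chosen with earlier results of these data known. Libraries for H3K27me3 and inputs were not used here. The sequence of 1 matrix match is not reported here.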

Additional observations from a re-analysis of the deposited data

How the results depend on the processing

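Of 104 recomputed counts, 70 stayed within 1.5 times the reported one and 34 did not. No paired analysis was possible because each list merges its replicates and the results come from no test, and leaving out a replicate could not be done for the same reason. With a window of 50 kb on both sides, CTCF mut held 12 peaks and Rad21 somKO 11. With 200 kb, CTCF held 32 in mut and 36 in somKO, and Rad21 held 39 for wt, 23 for mut and 35 for somKO. From 1 to 5 kb upstream of H19, CTCF had 3 peaks in wt and 2 in somKO and Rad21 2 in wt and 3 in somKO. The H19 start from RefSeq and a peak midpoint inside the interval moved no count of the control region by more than 1.5 times, and neither did a score of at least 50. Requiring an overlap of 50% of both peaks, CTCF peaks with Rad21 numbered 7 for wt, 8 for mut and 7 for somKO. With midpoints within 500 bp they numbered 9 in mut and 11 in somKO. Shares over the whole lists were not computed at 50% overlap or by midpoints. CTCF wt peaks without a mut peak numbered 5 both with a score of at least 50, of 22 peaks and with 16.4% lost over the list, and with lists of equal length, of 22 peaks and with 17.6% lost. CTCF wt peaks without a somKO peak numbered 8 at 50% overlap and 1 at a score of at least 50. Rad21 wt peaks without a mut peak numbered 15 at 50% overlap. Rad21 wt peaks without a somKO peak numbered 11 at 50% overlap, 9 with midpoints within 500 bp and 1 at a score of at least 50. CTCF peaks absent from wt numbered in mut 5 at 50% overlap, 3 by midpoints and 0 at a score of at least 50, and in somKO 4 at 50% overlap and 0 with lists of equal length. Rad21 peaks absent from wt numbered in mut 8 at 50% overlap and 1 by midpoints, and in somKO 10 at 50% overlap, 3 at a score of at least 50 and 2 with lists of equal length. Fewer peaks enter at higher scores, and a wide peak that breaks up can fail a 50% overlap. How many of the changes came about in these ways was not counted, and their cause was not tested.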
